A study of Mus musculus with 6 samples.

Results

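The contractile actomyosin and SRF-MRTF genes described here are 38 genes that encode actins, myosin chains, the proteins that bind and tension actin filaments, and the transcription factors and kinases that control them. They were chosen by name, with earlier results of these data known, and all 38 were found by symbol or synonym among the 46983 genes of the deposited counts. Mkl1 and Mkl2, the older names of Mrtfa and Mrtfb, were found through RefSeq synonyms. The members fall into 16 muscle-type isoforms, 15 non-muscle isoforms and 7 regulators, and 36 of the 38 passed the filter on low counts.

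Transcripts were counted by RNA sequencing of mouse embryonic fibroblasts, the cultured connective tissue cells of the embryo. The libraries form 2 groups of 3, labelled wild type and SphK2 null, where SphK2 (gene Sphk2) is sphingosine kinase 2, an enzyme that makes the lipid signal sphingosine-1-phosphate. Both groups are of strain C57BL/6, from embryos aged 14 days, at passage 16 and in serum-containing medium, with no treatment named. The labels give neither the number of embryos or lines behind a group nor the part of Sphk2 that the null allele lacks, so p-values measure only the spread between libraries, which may be technical.

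In these cells, actin filaments bundled with myosin II form stress fibres, and phosphorylation of the myosin light chain by myosin light chain kinase or by the ROCK kinases drives their contraction. Actin monomers hold the cofactors MRTF-A and MRTF-B in the cytoplasm. When monomers are used up by polymerisation, the cofactors enter the nucleus and join serum response factor (SRF), which binds a short DNA element called the CArG box in the promoters of many actin and smooth muscle genes. Smooth muscle actin and transgelin are widely used as markers of contractile fibroblasts, or myofibroblasts.

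The libraries held 15598566 to 23681718 counts in genes. Levels are CPM (counts relative to library size, scaled for composition with TMM factors), given as mean ± SD over the 3 libraries of a group, and 3 counts corresponded to 0.129 to 0.197 CPM. Of values joined by "against", those of the wild-type-labelled libraries come first. Sphk2 itself stood at 27.3 ± 0.907 against 50.02 ± 1.35 CPM (SD, n = 3, adjusted p by edgeR 4.48e-64), higher rather than lower under the null label. Of its exonic bases, 20.8% also belong to other gene models, and reads there were not counted. Since the part that the null allele lacks is not given, these counts do not show whether the labels are right. Groups are therefore called by their labels throughout. Fibroblast markers were lower under the null label in 10 of 10 genes, beside 41.1% of all tested genes. Their summed level was 14244 to 14699 CPM in wild-type-labelled and 3335 to 3370 CPM in null-labelled libraries, and most of the latter was Vim (177920 counts over the 3 libraries). Col1a1 had 35794 against 93 counts, Dcn 5739 against 29, Lum 917 against 3, and Thy1 256 against 0. Several genes that define the labelled cell type were thus at or near 0 in the null-labelled libraries. Others kept more, with Pdgfra at 14390 against 4949 counts and Pdgfrb at 6148 against 1607. Dcn, Lum and Thy1 passed the filter on low counts only through the wild-type-labelled libraries, so they could only enter as lower. In bulk samples, fewer cells of a type and less RNA per cell cannot be told apart.

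Promoter sequences from RefSeq (GRCm38.p6) were matched for 33 of the 38 members, and those of Actb, Actg2, Myh11, Rock1 and Tagln were not analysed here. A CArG box was searched by its consensus (a C pair, 6 bases that are each A or T, and a G pair, which reads the same on both strands) from 250 bases before to 50 after each start. It was present in 7 of the 33 members (21.2%), namely Acta1, Actc1, Actg1, Cnn2, Myl6, Myl9 and Srf, against 488 of 27025 genes (1.81%) in the whole table. Because the list was chosen for its link to SRF and MRTF, a higher share than over all genes may follow from that choice. Boxes began between 161 bases (Myl9) and 47 bases (Actc1) before the start. A few stretches are shown because they bracket the results below: the boxes of Myl9 and Cnn2, which were much lower under the null label, of Acta1, which did not pass the test, of Srf itself, and the promoter of Acta2, the member with the largest difference. Acta2 held no full box, and its capitals mark 2 near boxes, in which 1 of the 6 middle bases is G or C; this looser form was searched after the sequences had been seen, and it occurred in 7 of 33 members (21.2%) against 9.70% of all genes. Capitals in the others mark full boxes only, so the near boxes that Acta1 (2) and Myl9 (1) also hold stay in small letters. Letters run 5′ to 3′ on the gene's strand, and bases that the deposited annotation places inside the gene were left off.
Acta2 (chr19:34255374-34255623, minus strand): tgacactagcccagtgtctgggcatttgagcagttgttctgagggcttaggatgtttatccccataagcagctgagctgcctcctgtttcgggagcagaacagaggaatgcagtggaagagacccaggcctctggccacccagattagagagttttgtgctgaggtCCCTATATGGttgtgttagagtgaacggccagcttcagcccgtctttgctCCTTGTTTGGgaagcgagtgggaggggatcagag
Myl9 (chr2:156775214-156775419, plus strand): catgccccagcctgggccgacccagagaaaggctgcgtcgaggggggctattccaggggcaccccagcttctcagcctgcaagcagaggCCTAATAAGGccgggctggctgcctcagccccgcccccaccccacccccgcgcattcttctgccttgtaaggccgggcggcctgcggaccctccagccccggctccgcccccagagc
Cnn2 (chr10:79988350-79988583, plus strand): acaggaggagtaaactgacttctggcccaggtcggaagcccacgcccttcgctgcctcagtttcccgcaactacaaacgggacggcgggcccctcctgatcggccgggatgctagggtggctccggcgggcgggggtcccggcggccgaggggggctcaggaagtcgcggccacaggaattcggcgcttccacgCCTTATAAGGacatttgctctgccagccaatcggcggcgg
Acta1 (chr8:123894776-123895025, minus strand): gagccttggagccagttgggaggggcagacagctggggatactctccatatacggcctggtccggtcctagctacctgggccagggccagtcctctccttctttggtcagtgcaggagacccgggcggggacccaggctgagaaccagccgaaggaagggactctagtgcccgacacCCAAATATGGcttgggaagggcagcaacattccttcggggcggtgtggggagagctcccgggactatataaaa
Srf (chr17:46556163-46556412, minus strand): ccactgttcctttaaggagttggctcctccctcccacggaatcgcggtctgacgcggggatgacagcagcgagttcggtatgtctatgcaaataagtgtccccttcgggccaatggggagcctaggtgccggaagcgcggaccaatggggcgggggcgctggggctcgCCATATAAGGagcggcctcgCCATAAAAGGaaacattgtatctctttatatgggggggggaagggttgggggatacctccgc
A match is a string of letters and does not show that SRF binds there.

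Most contractile genes were lower in the null-labelled libraries, and the members that changed most were lower rather than higher. By the edgeR quasi-likelihood test, adjusted over all 15199 genes tested, 25 members fell, 7 rose and 4 did not pass, while over all tested genes 41.1% fell and 38.1% rose. Past a 2-fold change, 12 members fell and 0 rose, beside 15.8% and 10.4% of all tested genes. The median log2 fold change was -0.58 over the tested members and -0.02 over all tested genes. All null-labelled libraries lay below all wild-type-labelled ones in 25 tested members and above them in 7, beside 41.4% and 38.6% of all tested genes. Lmod1 and Actg2 would not have passed the filter on the null-labelled libraries alone, so they could only enter as lower. The plot of levels by library shows the members on a log scale.

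**Figure D1:**
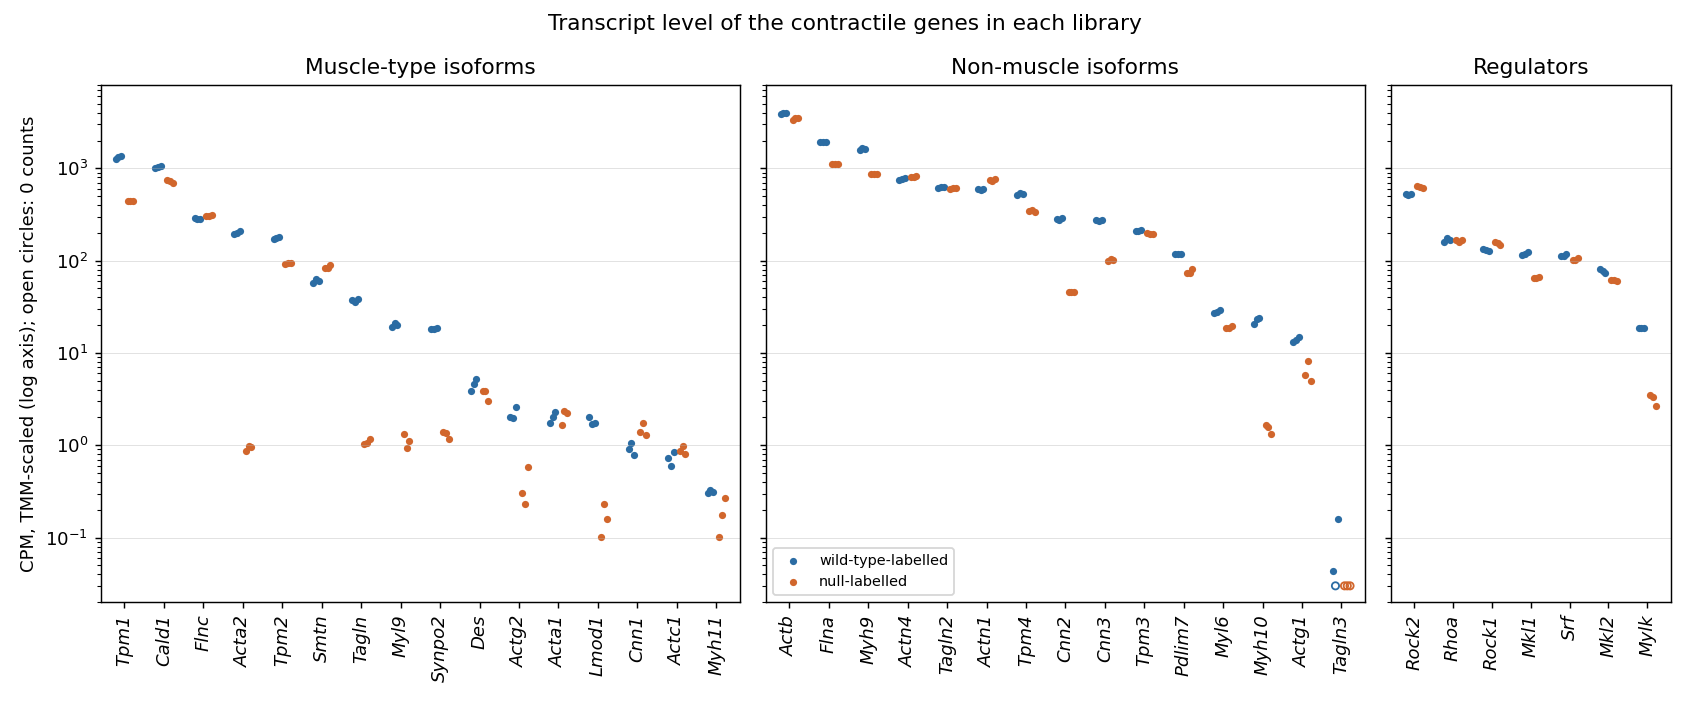
Level of each of the 38 genes in each library, in CPM on a log axis, with 1 point per library (blue, wild-type-labelled; orange, null-labelled) and open circles for libraries with 0 counts. Acta2 stood at 196 to 210 CPM in the wild-type-labelled and at 0.871 to 0.993 CPM in the null-labelled libraries, while Rhoa, Tagln2 and Actn4 stood close together in both.

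The muscle-type isoforms are proteins typical of smooth, cardiac or skeletal muscle, several of which contractile fibroblasts also make. Of the 16, 15 were tested: 10 fell, 3 rose and 2 did not pass, beside the 41.1% and 38.1% of all tested genes that fell and rose. Their median log2 fold change was -0.91. Counts sum all transcripts of a gene, so muscle and non-muscle products of the same gene (Tpm1, Tpm2 and Cald1 make both) cannot be told apart. Markers of smooth muscle cells and pericytes moved in the same direction. All 5 of the 7 that were tested fell, beside 41.1% of all tested genes. Of these, Rgs5 (100 against 15 counts) and Notch3 (75 against 9) passed the filter only through the wild-type-labelled libraries, so they could only enter as lower. The summed level of the 7 markers ran from 89.4 to 90.8 CPM and from 36.3 to 37.7 CPM. The defining genes Myocd (0 against 1 count) and Kcnmb1 (0 against 7) were at or near 0 in both groups. Skeletal muscle markers summed to 3.08 to 4.73 against 6.72 to 7.09 CPM, with Myod1 and Myog at 0 in all 6 libraries, and cardiac markers to 3.28 to 4.09 against 3.79 to 4.85 CPM. Within each of these lists 1 tested gene rose and 1 fell: Mylpf (68 against 301 counts) and Ttn (127 against 35) among the skeletal markers, and Gata4 (3 against 112) and Tnnt2 (197 against 117) among the cardiac ones. Neural markers summed to 63.1 to 64.9 against 14.5 to 14.9 CPM, and 4 of the 5 fell, beside 41.1% of all tested genes. Map2 (235 against 1 count), Snap25 (138 against 1) and Elavl4 (110 against 1) were near 0 under the null label. Stmn2 (2457 against 11 counts) made up most of the sum under the wild-type label, and Tubb3 (761 against 797 counts), which did not pass the test, nearly all of it under the null label. Epithelial markers summed to 107 to 110 against 383 to 410 CPM, mostly Krt8, which rose (6140 against 21937 counts), whereas its partner Krt18 fell (69 against 16 counts). The defining Epcam (9 against 6) and Cdh1 (22 against 21) were near 0 in both groups. Endothelial markers summed to 1.59 to 2.10 against 2.00 to 2.93 CPM and macrophage markers to 3.70 to 3.74 against 3.04 to 3.59 CPM, again with 1 tested gene that rose and 1 that fell in each list (Pecam1 and Cdh5, Csf1r and Cd68). Stmn2, Map2, Snap25, Elavl4, Krt18 and Cdh5 passed the filter only through the wild-type-labelled libraries, and Gata4 and Csf1r only through the null-labelled ones. The filter thus fixed the direction of these genes. What part any of the listed cell types has in the differences was not tested.

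Acta2 encodes smooth muscle alpha-actin (chr19:34241090-34255336, minus strand, mm10). It stood at 196, 199 and 210 CPM in the wild-type-labelled libraries and at 0.871, 0.993 and 0.960 CPM in the null-labelled ones, that is 4549, 3036 and 4013 counts against 17, 17 and 18. The groups lay far apart and varied little within themselves. The log2 fold change was -7.74 ± 0.074 (SE), a 213-fold lower level, and its edgeR adjusted p was too small for the software to write. Of all tested genes, 2.71% had a lower log2 fold change.

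Tagln, Myl9, Synpo2 and Lmod1 followed. Tagln encodes transgelin (SM22), an actin cross-linking protein of smooth muscle, and was found at 37.4, 35.2 and 38.5 CPM against 1.02, 1.05 and 1.17 CPM. No library of either group came near the other group, and the log2 fold change of Tagln was -5.09 ± 0.11 (SE), 34.1-fold lower, with an edgeR adjusted p again too small to write. Myl9, the regulatory light chain of smooth muscle myosin, stood at 19.1, 21.3 and 20.3 against 1.33, 0.935 and 1.12 CPM, a difference of -4.14 ± 0.13 (SE) on the log2 scale and an adjusted p by edgeR of 1.91e-215. Its level was thus 17.6-fold lower under the null label. Synpo2, a synaptopodin relative that binds actin bundles, stood at 18.1, 18.2 and 18.6 against 1.38, 1.34 and 1.17 CPM, a difference of -3.81 ± 0.13 (SE) on the log2 scale and an adjusted p by edgeR of 7.18e-185. Lmod1, the leiomodin that nucleates actin filaments in smooth muscle, was a low gene, with 47, 26 and 33 counts against 2, 4 and 3. Its log2 fold change was -3.45 ± 0.38 (SE), and the adjusted p by edgeR was 1.57e-19.

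The other muscle actins were low in both groups. Actg2, the gamma-actin of visceral smooth muscle, stood at 2.02, 1.97 and 2.57 against 0.307, 0.234 and 0.586 CPM, and fell by 2.51 ± 0.30 (SE) on the log2 scale with an edgeR adjusted p = 1.48e-16. Acta1, the skeletal muscle actin, stood at 1.72, 2.03 and 2.30 against 1.64, 2.34 and 2.24 CPM, with a log2 fold change (± SE) of 0.04 ± 0.21 and an adjusted p by edgeR of 0.858. Actc1, the cardiac actin, stood at 0.731, 0.590 and 0.838 against 0.871, 0.993 and 0.800 CPM, with a log2 fold change (± SE) of 0.28 ± 0.31 and an adjusted p by edgeR of 0.415. Both overlapped between the groups, at a depth of few counts. Acta1 and Actc1 carry a full CArG box in the window searched, as do Myl9 and Cnn2. Myh11, the smooth muscle myosin heavy chain, had 7, 5 and 6 counts against 2, 3 and 5 and was not tested.

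The tropomyosins, which lie along actin filaments, and caldesmon fell by less. Tpm1 went from 1267, 1330 and 1358 to 446, 447 and 447 CPM, a log2 fold change of -1.56 ± 0.022 (SE). Tpm2 stood at 176 ± 3.49 against 93.4 ± 1.77 CPM (SD, n = 3), a log2 fold change of -0.91 ± 0.032 (SE), with an edgeR adjusted p = 1.64e-180. Cald1, encoding caldesmon, an actin-binding inhibitor of the myosin ATPase, stood at 1026 ± 21.0 against 722 ± 24.5 CPM (SD, n = 3), which is a log2 fold change (± SE) of -0.51 ± 0.022 and an adjusted p by edgeR of 1.69e-121. The groups did not overlap in any of these 3 abundant genes.

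Smtn, Flnc and Cnn1 went the other way. Smtn, encoding smoothelin, a protein of contractile smooth muscle, stood at 56.9, 62.5 and 59.7 against 82.9, 83.9 and 90.1 CPM and rose by a log2 fold change of 0.53 ± 0.040 (SE), with an edgeR adjusted p = 4.74e-39. Of its exonic bases, 16.3% also belong to other gene models, and reads there were not counted. Flnc, the filamin of striated muscle, rose slightly, from 285 ± 3.98 to 307 ± 4.75 CPM (SD, n = 3), which is a log2 fold change (± SE) of 0.11 ± 0.025 and an adjusted p by edgeR of 3.88e-05. Cnn1, the smooth muscle calponin, was low, at 0.903, 1.05 and 0.785 against 1.38, 1.75 and 1.28 CPM, a difference of 0.69 ± 0.27 (SE) on the log2 scale and an adjusted p by edgeR of 0.0136. That call rests on few counts and was lost with DESeq2 (adjusted p = 0.0865), without wild-type-labelled replicate 3 (edgeR adjusted p = 0.0626) and without null-labelled replicate 2 (0.0917). Des, encoding the muscle intermediate filament desmin, stood at 3.87, 4.59 and 5.24 against 3.89, 3.85 and 3.04 CPM, with groups that overlapped. Its log2 fold change was -0.33 ± 0.15 (SE), and the adjusted p by edgeR was 0.0315, and the call was lost with DESeq2 (adjusted p = 0.122), with limma-voom (0.0616), with library totals (edgeR adjusted p = 0.0782) and without any of 3 libraries, namely wild-type-labelled replicate 2 (edgeR adjusted p = 0.0573), wild-type-labelled replicate 3 (0.229) and null-labelled replicate 3 (0.204).

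**Figure D2:**
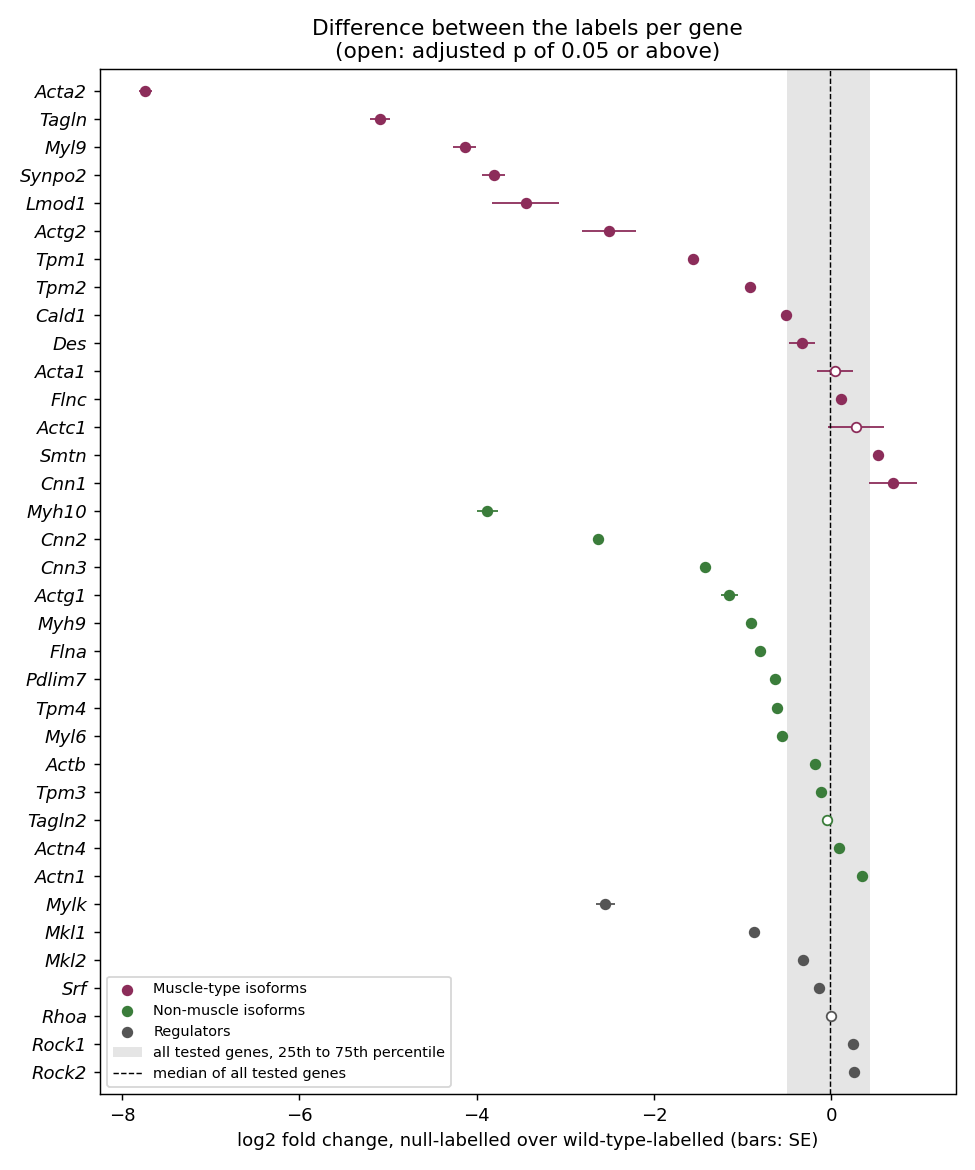
Log2 fold change (null-labelled over wild-type-labelled) of the 36 tested genes, with bars of 1 SE, coloured by class, and open points for an adjusted p of 0.05 or above. The grey band holds the 25th to 75th percentile of all tested genes (-0.50 to 0.44), and each class spans from far below the band to within it or slightly above it.

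The non-muscle isoforms carry the contractile machinery that nearly every cell has. Of 15, 14 were tested: 11 fell, 2 rose and 1 did not pass, beside 41.1% lower and 38.1% higher over all tested genes. The median log2 fold change was -0.63, and 4 fell by more than 2-fold, as did 15.8% of all tested genes. Myh10, the heavy chain of non-muscle myosin IIB, had the largest difference among them, at 20.5, 23.5 and 23.8 against 1.64, 1.58 and 1.33 CPM. The groups stood far apart, and the log2 fold change of Myh10 was -3.88 ± 0.12 (SE), 14.7-fold lower, with an edgeR adjusted p = 1.06e-227. Myh9, the heavy chain of myosin IIA, was the major one in both groups, at 1592, 1668 and 1615 against 874, 863 and 872 CPM. It fell by 0.90 ± 0.021 (SE) on the log2 scale.

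Cnn2 and Cnn3 encode the non-muscle calponins, which stabilise actin filaments. Cnn2 stood at 284, 277 and 291 against 45.7, 46.0 and 45.5 CPM, with groups that were each tight and far from one another. Its log2 fold change was -2.63 ± 0.033 (SE), 6.21-fold lower. Cnn3 stood at 274, 266 and 277 against 98.2, 105 and 102 CPM, a log2 fold change of -1.42 ± 0.029 (SE). Of the longest coding transcript of Cnn3, 48.5% is near-identical to another gene (at least 95% over at least 51 bases). Of its exonic bases, 17.7% also belong to another gene model, and reads there were not counted. Part of the Cnn3 reads may thus have gone uncounted in both groups. Cnn1, with under 2 CPM in every library, was the only calponin that was higher under the null label, with the limits given above.

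The cytoplasmic actins and the other filament proteins differed by less. Actb, the cytoplasmic beta-actin, stood at 3839, 3995 and 3951 against 3371, 3494 and 3491 CPM, a difference of -0.19 ± 0.019 (SE) on the log2 scale and an adjusted p by edgeR of 6.59e-23. Actg1, the cytoplasmic gamma-actin, had 307, 208 and 286 against 113, 141 and 93 counts, a difference of -1.15 ± 0.097 (SE) on the log2 scale and an adjusted p by edgeR of 1.46e-31. Its level is uncertain, because 57.8% of its longest coding transcript is near-identical to other genes and reads that map to several places were not counted. Flna, the main filamin that cross-links actin networks, stood at 1932 ± 20.2 against 1102 ± 2.37 CPM (SD, n = 3), and Tpm4, a non-muscle tropomyosin, at 526 ± 10.1 against 343 ± 7.86 CPM (SD, n = 3). These correspond to log2 fold changes of -0.81 ± 0.020 (SE) for Flna and -0.62 ± 0.024 (SE) for Tpm4. Pdlim7, a scaffold of stress fibres, fell by 0.64 ± 0.036 (SE) on the log2 scale, and Myl6, the essential myosin light chain, by 0.55 ± 0.063 (SE). Tpm3 fell by 0.12 ± 0.027 (SE), with 85.4% of its longest coding transcript near-identical to another gene. The near-identical part was 38.2% for Myl6 and 34.8% for Tpm4, so part of their reads may also have gone uncounted.

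Alpha-actinins, which cross-link filaments in stress fibres, were the non-muscle members that rose. Actn1 stood at 593, 575 and 601 against 755, 730 and 770 CPM, a difference of 0.35 ± 0.022 (SE) on the log2 scale and an adjusted p by edgeR of 1.77e-55. Actn4 stood at 748, 775 and 784 against 811, 802 and 834 CPM, a difference of 0.08 ± 0.022 (SE) on the log2 scale and an adjusted p by edgeR of 1.45e-04. Neither overlapped between the groups, although Actn4 differed little. Tagln2, the transgelin of non-muscle cells, stood at 607, 621 and 635 against 593, 607 and 606 CPM. Its log2 fold change (± SE) was -0.05 ± 0.022, with an adjusted p by edgeR of 0.0518. Its sign turned when counts were scaled by library totals alone. It was called lower with DESeq2 (adjusted p = 0.0415), limma-voom (0.0374), median-of-ratios scaling (edgeR adjusted p = 0.031), no filter (0.00692) and a replicate block (0.0395). The same held when wild-type-labelled replicate 1, null-labelled replicate 2 or null-labelled replicate 3 was left out. Tagln3, a neuronal transgelin, had 1, 0 and 3 counts against 0, 0 and 0 and was not tested.

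Because levels of different genes can be compared only per length, the make-up of each family was given as shares of the counts per exonic kilobase. Acta2 made up 7.13 ± 0.214% of the counted actins against 0.041 ± 0.0019% (SD, n = 3), while Actb made up 92.3 ± 0.257% against 99.6 ± 0.056%. Reads of Actg1 that went uncounted would make the actin total too small, so the shares of Acta2 and Actb may be too high. They are therefore not shares of all actin transcripts. Tagln made up 7.26 ± 0.293% of the transgelins against 0.236 ± 0.015%, and Tagln2 nearly all the rest. Among the tropomyosins, the share of Tpm1 was 37.8 ± 0.707% against 23.9 ± 0.255%, that of Tpm4 44.5 ± 0.749% against 53.9 ± 0.647%, and that of Tpm2 11.2 ± 0.207% against 11.1 ± 0.295%. The order of Tpm1 and Tpm4 turned without division by length, where Tpm1 held 59.0% against 41.4% and Tpm4 23.6% against 31.8%, so no order is given for them.

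The shares of the calponins also differed between the labels. Cnn2 held 56.2 ± 0.168% of the family in the wild-type-labelled and 35.3 ± 0.752% in the null-labelled libraries, and Cnn3 43.6 ± 0.152% and 63.6 ± 0.678%. Reads of Cnn3 that went uncounted would make its share too low. No order of Cnn2 and Cnn3 is therefore given for the wild-type-labelled libraries. Among the myosin heavy chains, Myh10 had 1.69 ± 0.111% against 0.215 ± 0.023%, and Myh9 over 98% in all libraries. Flnc took 12.9 ± 0.275% of the filamins against 21.8 ± 0.273%, and Actn1 50.3 ± 0.822% of the alpha-actinins against 54.9 ± 0.270%. These shares carry no test, since an exact two-sided test of a single share in 3 libraries against 3 cannot give a p under 0.1. Those of Actg1, Tpm3, Tpm4 and Cnn3 are uncertain for the reasons given above. The shares of the other genes in the same families are therefore uncertain too.

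**Figure D3:**
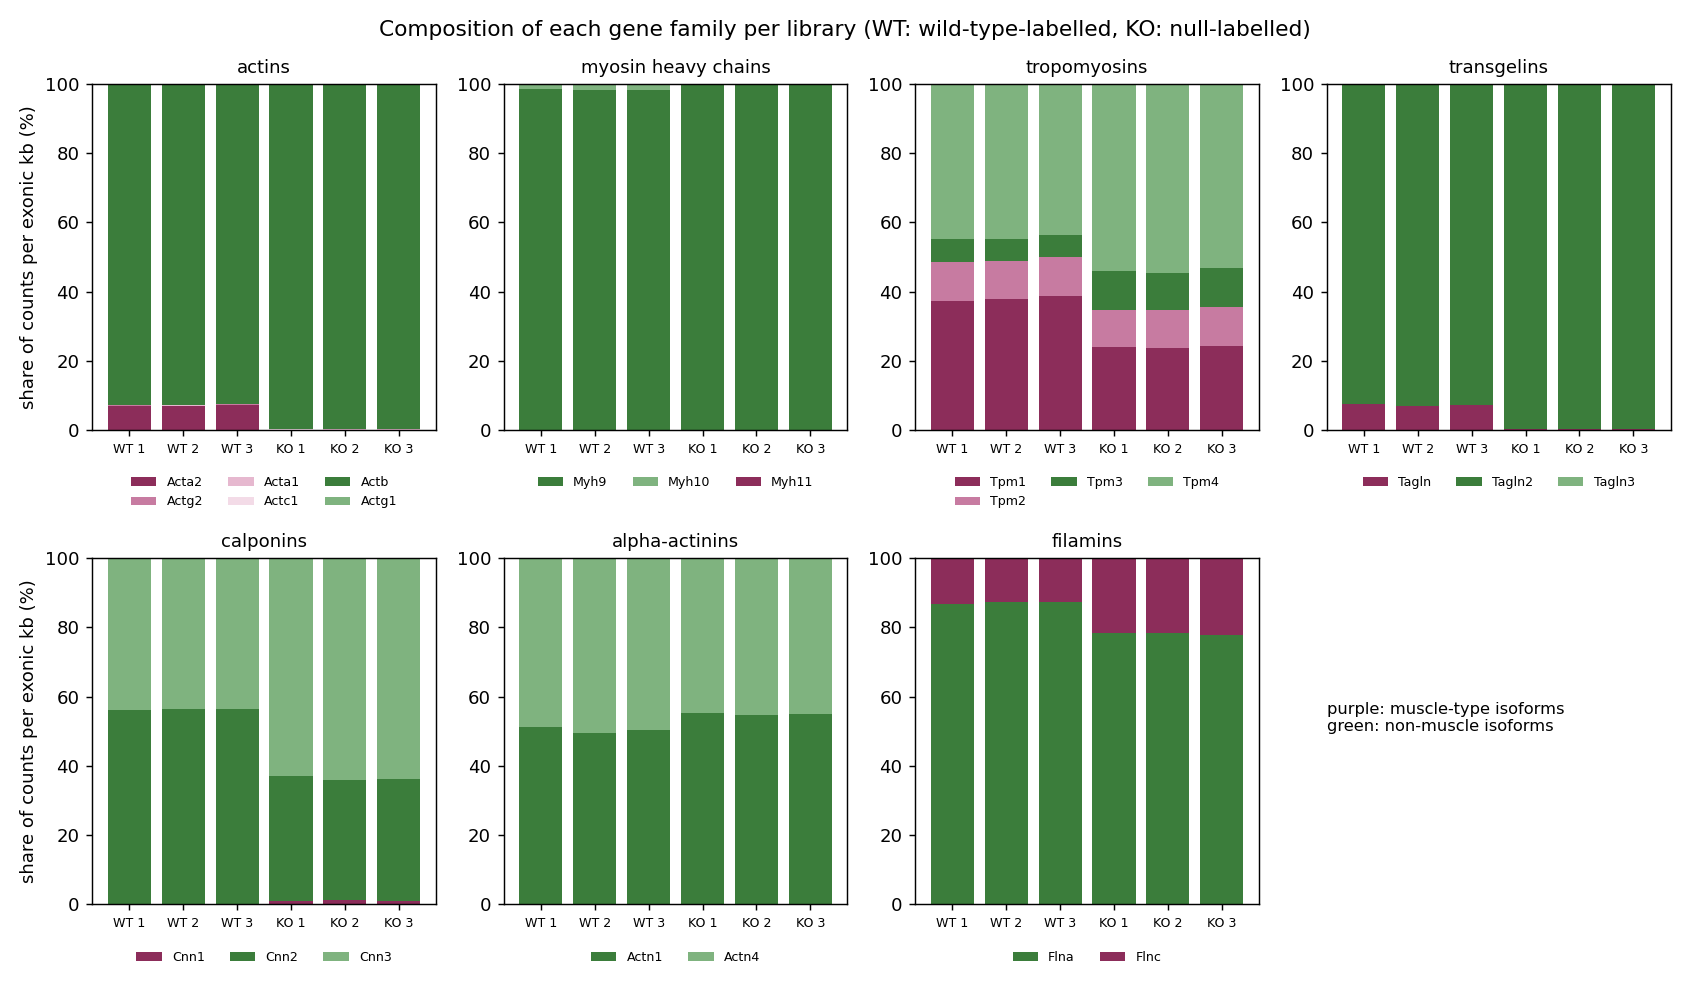
Share of each gene in the summed counts per exonic kilobase of its family, in percent, with 1 stacked bar per library (WT, wild-type-labelled; KO, null-labelled). Muscle-type genes are purple and non-muscle genes green; Acta2 and Tagln fill about 7% of their families in the WT bars and are too thin to see in the KO bars, and Cnn2 has 56.2% against 35.3%.

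Among the regulators, Mylk had the largest difference. Of 7 tested, 4 fell, 2 rose and 1 did not pass, which with so few genes is near the 41.1% and 38.1% over all tested genes, and the median log2 fold change was -0.14. Mylk encodes myosin light chain kinase, which phosphorylates the light chain to start contraction, and stood at 18.8, 18.5 and 18.5 against 3.54, 3.33 and 2.67 CPM. All wild-type-labelled libraries were close together and far above the others. The log2 fold change of Mylk was -2.55 ± 0.11 (SE), 5.86-fold lower, with an edgeR adjusted p = 4.26e-126, and it was the only regulator that fell by more than 2-fold.

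The ROCK kinases, which act on the same light chain and on its phosphatase, rose. Rock2 stood at 525, 520 and 523 against 640, 620 and 615 CPM, a difference of 0.26 ± 0.023 (SE) on the log2 scale and an adjusted p by edgeR of 1.72e-29. Rock1 stood at 133, 129 and 127 against 160, 154 and 147 CPM, a difference of 0.25 ± 0.031 (SE) on the log2 scale and an adjusted p by edgeR of 2.03e-15. Rhoa, the GTPase that activates them, stood at 159, 174 and 168 against 169, 161 and 165 CPM, with groups that overlapped. Its log2 fold change was -0.01 ± 0.029 (SE; 95% interval -0.07 to 0.05), with an edgeR adjusted p = 0.76.

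SRF and its cofactors fell by small to moderate amounts. Srf stood at 113, 113 and 117 against 101, 102 and 107 CPM, a difference of -0.14 ± 0.034 (SE) on the log2 scale and an adjusted p by edgeR of 3.58e-05. Mkl1 (MRTF-A) stood at 116, 118 and 123 against 64.6, 65.2 and 65.7 CPM, a difference of -0.87 ± 0.037 (SE) on the log2 scale and an adjusted p by edgeR of 3.02e-122. Mkl2 (MRTF-B) stood at 80.4, 76.3 and 73.3 against 61.8, 61.9 and 60.7 CPM, a difference of -0.32 ± 0.040 (SE) on the log2 scale and an adjusted p by edgeR of 4.93e-15. None of the 3 overlapped between the groups. Transcript counts do not show where the cofactor proteins are in the cell. Of the other SRF cofactors, Myocd, encoding the myocardin of smooth and cardiac muscle, had 0 counts against 1. Elk1 and Elk3, ternary complex factors that join SRF in the growth response, fell by 0.50 ± 0.051 and 0.96 ± 0.030 (SE) on the log2 scale. Elk4 rose by a log2 fold change of 0.14 ± 0.042 (SE), with an edgeR adjusted p = 1.21e-03, a call lost without null-labelled replicate 2 (0.0601).

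Genes around the members were counted in 2 longer lists. Like the members, these lists were chosen with earlier results of these data known, so their counts are a description and not independent support. Of 36 genes of small GTPase signalling and actin turnover, 34 were tested, and 16 fell, 15 rose and 3 did not pass, beside the 41.1% and 38.1% of all tested genes that fell and rose. The 3 with the largest falls were Pfn2, a profilin that feeds actin monomers to growing filaments (50.4 against 4.68 CPM), Rnd3, a GTPase that opposes RhoA (118 against 27.6 CPM), and Ssh1, a phosphatase that activates cofilin (62.7 against 23.4 CPM). The 3 named for their rise were Rhob, a relative of RhoA (125 against 328 CPM), Ssh2, another cofilin phosphatase (24.7 against 49.9 CPM), and Diaph1, a formin that nucleates actin filaments (115 against 194 CPM). The log2 fold changes ran from -3.42 ± 0.076 (SE) for Pfn2 to 1.40 ± 0.027 (SE) for Rhob.

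Of 41 genes of stress fibres, focal adhesions and other SRF-linked cytoskeleton, 37 were tested, and 29 fell, 6 rose and 2 did not pass, beside 41.1% and 38.1% of all tested genes, with a median log2 fold change of -0.87. Past 2-fold, 16 fell and 3 rose, beside 15.8% and 10.4% of all tested genes. Of these, 4 that fell (Tmod2, Sorbs2, Fhl1 and Ankrd1) and 2 that rose (Actn2 and Vil1) passed the filter only through the group in which they were high, so their direction was fixed by it. Enah, encoding the filament elongation factor Mena, went from 220 to 2.48 CPM, a log2 fold change of -6.46 ± 0.061 (SE). Tmod2, a tropomodulin that caps filament ends, had 734 counts against 4, and Sorbs2, an adaptor of stress fibres and adhesions, had 216 against 1. Among those that rose, the actin-binding LIM protein Ablim1 went from 3.60 to 29.8 CPM, a log2 fold change of 3.06 ± 0.091 (SE), and Trip6, an adhesion protein related to zyxin, from 77.1 to 104 CPM. Lower genes of this list spread over the range of the muscle-type members, as the plot of the lists shows.

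**Figure D4:**
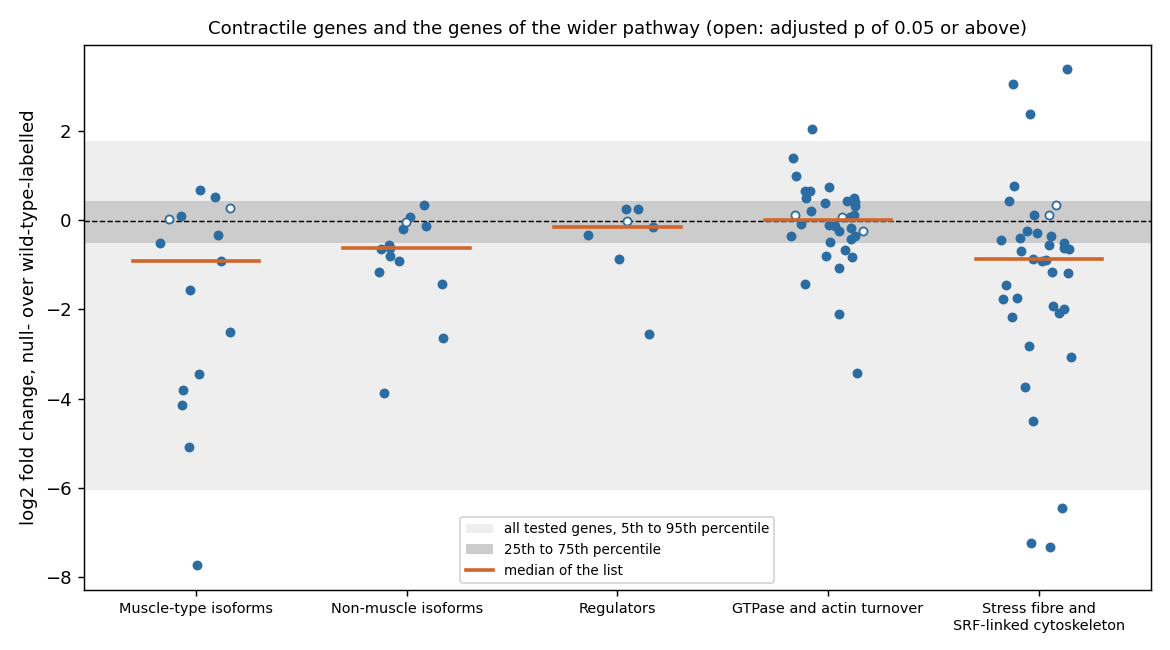
Log2 fold change (null-labelled over wild-type-labelled) of each tested gene of the 3 member classes and the 2 longer lists, with open points for an adjusted p of 0.05 or above, an orange line at each median and grey bands for the 25th to 75th and 5th to 95th percentile of all tested genes. Medians are -0.91, -0.63 and -0.14 for the muscle-type, non-muscle and regulator members and -0.87 for the stress fibre list, while the GTPase and actin turnover list is centred at the dashed median of all genes.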

How the data were processed

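Per the file headers, the authors made the deposited counts, which are not normalized, with featureCounts 1.6.2, by exon and gene identifier, on GRCm38 (mm10 names) with the annotation of Ensembl 83. No option for strand, multimapping reads or reads over several genes was set, so such reads were left out by default. The labels' protocols give single reads of 51 bp. The submitters' processing notes name Subread 1.6.2, Trimmomatic 0.33 and FastQC 0.11.2, and give featureCounts as 1.2.6, unlike the headers.

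Groups came from the sample titles. Of 46983 genes, filterByExpr kept 15199. The test was edgeR's quasi-likelihood F-test (edgeR 4.0.16 in R 4.3.3; TMM scaling, robust dispersion), 3 libraries against 3, with Benjamini-Hochberg adjustment over all genes tested and a threshold of 0.05. The SE is the size of the log2 fold change over the square root of F. The test was run on simulated counts in which only a small part of the genes changed. Most tested genes differed here, so that check does not cover the scaling or the error rate in these data. The members and lists were chosen with earlier results of these data known. All 38 members and Sphk2 were named, with all 4 other SRF cofactors. Of each longer list, the 3 lower and 3 higher genes with the largest fold change were named among genes past 0.05, at or above an average log2 CPM of 1, and without overlap; 1 of them is not reported here. Single marker genes, and Fhl1, Ankrd1, Actn2 and Vil1, were named after their values were seen. Near-identity was taken from BLAST of each member's longest coding transcript against the other transcripts of the reference. Alternatives were median-of-ratios, upper-quartile and library-total scaling, DESeq2 1.42.0, limma-voom (limma 3.58.1), other filters, a replicate block, an adjusted p under 0.01 and leaving out each library.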

Additional observations from a re-analysis of the deposited data

How the results depend on the processing

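The counts of members lower (25 of 36 tested, 24 to 26 under the alternatives that kept all members) and higher (7, or 6 to 7) stayed within 1.5 times under every scaling, tool, filter, threshold and left-out library that was run, and 12 members fell by over 2-fold in each of them. Without Actg1 and Tpm3, most of whose longest coding transcript is near-identical to other genes, 23 fell and 11 did so by over 2-fold; this alternative was chosen after seeing the data. Of 539 checks of single members under 15 alternatives, 512 kept direction and call, 11 lost a call, 8 gained one (all of them Tagln2) and 8 turned sign. The turns were in genes that had not passed: Acta1 ran from -0.0872 to 0.192 (log2) with 1 library left out, Rhoa from -0.0524 to 0.0137, and Rhoa stood at 0.0482 with library totals and 0.0162 with upper-quartile scaling. Tagln2 stood at 0.0125 with library totals. Library totals moved the median of all genes by 0.06 (log2), and the share of lower among called genes was 51.9%, or 47.4% with them. Without division by exonic length, the difference in share (null-labelled minus wild-type-labelled, percentage points) was -4.83 in place of -7.09 for Acta2, -1.20 in place of -1.47 for Myh10, -17.6 in place of -14.0 for Tpm1 and -5.45 in place of -7.03 for Tagln, since long genes then weigh more, and Tpm1 then led Tpm4 in both groups.

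No label says whether equal replicate numbers mark libraries made together. Deviations of same-numbered libraries correlated at 0.01, -0.00 and 0.02, so no strong shared effect was seen, but such values cannot settle the pairing. With the number as a replicate block, 26 members fell and 7 rose. Depth limits the genes with few counts (Actc1, Acta1, Cnn1, Lmod1, Myh11, Tagln3), for which small differences were not detectable.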
